A study of Mus musculus with 32 samples.

Results

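The genes described here encode the enzymes of the pentose phosphate pathway and the NADP-dependent isocitrate dehydrogenases, which are main routes by which a liver cell reduces NADP+ to NADPH. They are 9 of the 20076 genes in the count table and were chosen by name: G6pdx, H6pd, Pgls, Pgd, Rpia, Tkt and Taldo1 of the pentose phosphate pathway, and Idh1 and Idh2. All 9 were among the 11566 genes with enough counts to be tested over 30 mice.

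Liver RNA of 32 male mice on a C57BL/6J background was sequenced from the 3′ end of polyadenylated transcripts, with 4 mice in each of 8 groups. The groups crossed genotype, diet and feeding state. The knockout mice (KO) lack Acadm, the gene of medium-chain acyl-CoA dehydrogenase (MCAD), and the wild-type mice (WT) were their littermates. Both genotypes received a low-fat (LF) control diet or a high-fat (HF) semisynthetic diet for 6 weeks. They were then fasted for 16 h or kept on their diet for the same 16 h (fed). The study asked how the liver of the KO mouse adapts to the loss of MCAD, and NADP+ and NADPH are among the cofactors it examined. The labels give ages of 7.5 to 16 without a unit, and every group was of male mice only.

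Values are CPM, read counts scaled to the size of the library, after TMM normalization, which makes libraries of unequal depth and composition comparable. The 32 libraries held 2031053 to 4292200 counts, with a median of 2899001. Acadm itself was between 189.8 and 748 CPM in the 15 WT mice used and between 8.98 and 37.1 CPM in the 15 KO mice used. The library labelled KO HF fasted replicate 4 held 38517 CPM of heart markers and 816 CPM of hepatocyte markers, against 41029 to 65460 CPM of hepatocyte markers in the 30 mice used. It was left out together with WT LF fed replicate 2, which held 33060 CPM of hepatocyte markers, so that the KO HF fasted and WT LF fed groups have 3 mice each. Among the mice kept, KO LF fasted replicate 1 had the lowest mean correlation with its own group (0.886, where the others had at least 0.914). WT HF fasted replicate 2 and KO HF fed replicate 1 held 17380 and 2548 CPM of acinar pancreas markers. Skeletal muscle markers summed to 1110 CPM in KO HF fed replicate 1, 600.3 CPM in WT HF fed replicate 4 and 251 CPM in WT HF fasted replicate 4, and to at most 26.0 CPM in the other 27 mice. The same 3 libraries had the highest heart marker sums of the mice kept, at 334, 178 and 67.8 CPM. Adrenal cortex markers reached 167 and 73.1 CPM in KO LF fasted replicates 3 and 4. In bulk tissue, fewer cells of a type and less RNA per cell cannot be told apart.

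The pentose phosphate pathway branches off glycolysis at glucose 6-phosphate. Its oxidative branch forms NADPH at its glucose 6-phosphate dehydrogenase and 6-phosphogluconate dehydrogenase steps, with a lactonase in between, and ends in ribulose 5-phosphate. Its non-oxidative branch interconverts sugar phosphates and returns carbon to glycolysis. Isocitrate dehydrogenases that use NADP+ oxidize isocitrate to 2-oxoglutarate, in the cytosol and peroxisomes (Idh1) or in mitochondria (Idh2). In liver, NADPH is consumed by fatty acid and cholesterol synthesis and by the regeneration of reduced glutathione and thioredoxin, and lipogenic enzymes are known to be held high by feeding.

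The sequence just upstream of the RefSeq start of 4 of these genes is printed because it shows which short promoter elements genes with different fasting responses carry. They are the dehydrogenases G6pdx and Pgd of the oxidative branch, and Idh1 and Idh2. Each run is the 250 bases before the RefSeq transcript start, 5′ to 3′ on the strand of the gene (the minus strand for all 4), on build GRCm38.p6. Capitals mark matches, on either strand, to the antioxidant response element core TGACNNNGC (recognized by NRF2), to the CCAAT box CCAAT, or to the GC box GGGCGG. The windows are chrX:74428881-74429130 for G6pdx, chr4:149166706-149166955 for Pgd, chr1:65186480-65186729 for Idh1 and chr7:80115351-80115600 for Idh2. The gene positions given below are from the GENCODE annotation, which places the start of G6pdx further upstream. By that annotation the whole G6pdx run lies inside the gene, chrX:74409483-74429194.
G6pdx: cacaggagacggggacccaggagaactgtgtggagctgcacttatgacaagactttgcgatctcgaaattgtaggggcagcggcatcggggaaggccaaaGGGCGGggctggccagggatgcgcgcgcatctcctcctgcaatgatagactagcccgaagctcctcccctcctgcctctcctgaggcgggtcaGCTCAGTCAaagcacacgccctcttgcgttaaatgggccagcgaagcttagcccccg
Pgd: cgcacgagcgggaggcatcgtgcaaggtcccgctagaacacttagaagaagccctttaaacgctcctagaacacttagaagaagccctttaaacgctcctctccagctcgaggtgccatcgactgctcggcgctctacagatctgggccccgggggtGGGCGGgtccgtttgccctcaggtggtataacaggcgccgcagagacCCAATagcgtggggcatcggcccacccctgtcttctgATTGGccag
Idh1: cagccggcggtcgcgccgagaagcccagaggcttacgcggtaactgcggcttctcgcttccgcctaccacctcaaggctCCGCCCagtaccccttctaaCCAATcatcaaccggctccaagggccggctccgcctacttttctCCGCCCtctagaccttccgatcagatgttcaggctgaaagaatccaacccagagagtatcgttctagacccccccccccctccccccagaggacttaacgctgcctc
Idh2: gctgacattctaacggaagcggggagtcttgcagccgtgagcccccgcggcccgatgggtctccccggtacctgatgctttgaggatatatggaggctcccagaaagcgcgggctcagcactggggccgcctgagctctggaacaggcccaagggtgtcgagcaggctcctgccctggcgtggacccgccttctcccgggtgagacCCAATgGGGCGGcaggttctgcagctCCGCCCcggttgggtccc

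The same search was run on all 11 RefSeq promoter windows of the 9 genes, each of 250 bases before and 50 after the start, and on all 32851 windows of the mouse table. The antioxidant response element core stood in 2 windows of the 9 genes and in 12.4% of all windows. In G6pdx its first base was at -57 on the minus strand relative to the gene, and in the second annotated start of Pgd it was at 4. The CCAAT box was found in 5 of the 11 windows (of H6pd, Pgd, Taldo1, Idh1 and Idh2) and in 37.4% of all windows. The GC box was found in 9 of the 11 windows, from 8 genes, all but H6pd, and in 35.7% of all windows. The H6pd window, chr4:150003187-150003486 on the minus strand, lies inside the GENCODE span of the gene, chr4:149979475-150009023. It may not be the promoter used in liver, so the lack of a GC box there is no trait of the gene. No window of the 9 genes held the E-box CACGTG (7.15% of all windows), the sterol response element TCACNCCAC (1.24%) or the TATA box TATAAA (13.6%). Idh1 and Idh2, which differed in their fasting response, both carried a CCAAT box and GC boxes in these windows. A match is a description of letters and no evidence of binding.

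**Figure D1:**
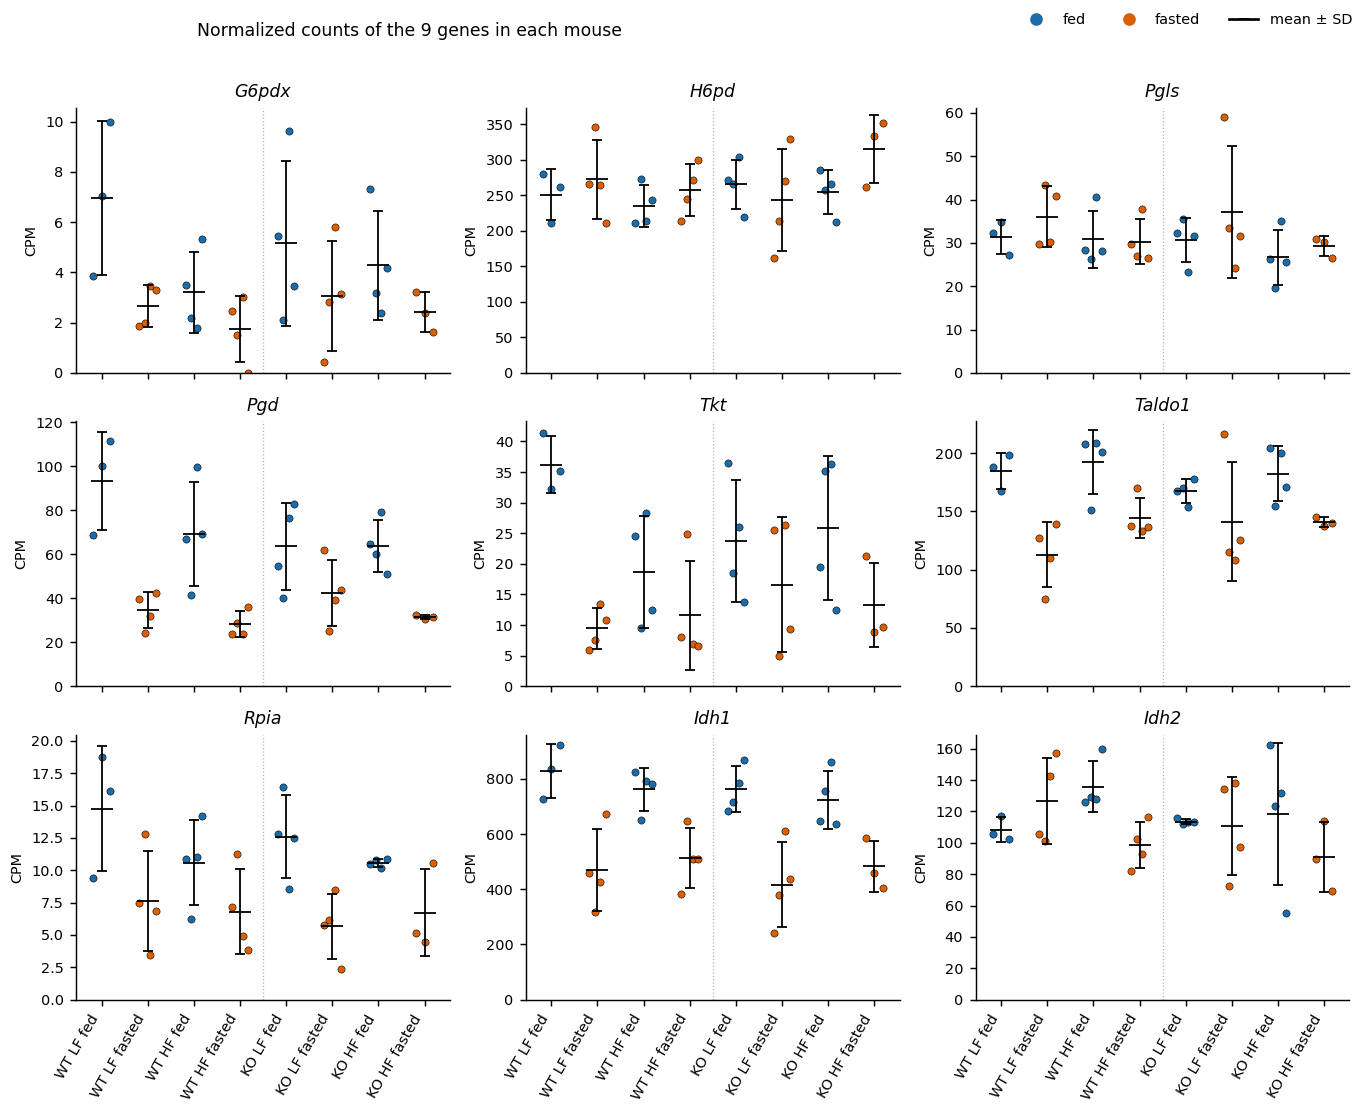
Level in CPM (counts scaled to library size) of each of the 9 genes in each of the 30 mice, by group on the horizontal axis, with fed mice in blue, fasted mice in orange, and bars for the mean ± SD of 3 or 4 mice. G6pdx, Pgd, Tkt, Taldo1, Rpia and Idh1 have lower means in the fasted mice of each genotype and diet, and every one of the 9 genes overlaps to some extent between fed and fasted mice over all 30 mice.

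Fasting lowered most of these genes. In one model of the 8 groups, with the fasting effect averaged over the 4 combinations of genotype and diet, 6 of the 9 genes were lower in fasted mice and 0 were higher at an adjusted p below 0.05 (edgeR quasi-likelihood test, adjusted over all 11566 genes). Of all genes tested, 9.14% were lower and 9.77% higher, 18.9% in either direction. The median log2 fold change was -0.71 over the 9 genes and -0.00219 over all genes tested. The genes that fell were G6pdx and Pgd of the oxidative branch, all of Rpia, Tkt and Taldo1 of the non-oxidative branch, and Idh1. H6pd, Pgls and Idh2 did not pass the test.

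Pgd encodes 6-phosphogluconate dehydrogenase, the enzyme of the pathway's later NADPH-forming step, and lies at chr4:149149991-149166771 (GRCm38). Among WT LF mice it was 39.5, 24.1, 31.9 and 42.3 CPM in the 4 fasted mice and 68.5, 99.9 and 112 CPM in the 3 fed mice. Among WT HF mice it was 23.7, 29.0, 24.0 and 36.2 CPM fasted and 66.9, 41.4, 99.5 and 69.0 CPM fed. In both WT diets every fasted mouse was below every fed mouse. Among KO LF mice the values were 61.8, 25.2, 39.0 and 43.8 CPM fasted and 54.5, 40.0, 76.6 and 82.9 CPM fed, and among KO HF mice 32.2, 30.6 and 31.4 CPM fasted and 64.6, 59.9, 79.0 and 51.0 CPM fed. The KO HF groups did not overlap. The KO LF groups did, through fasted replicates 1 and 4, which were above the lowest fed mouse, and replicate 1 is the library that correlates least with its group. Over all mice, 12 of the 15 fasted mice were below the lowest fed mouse, and all 15 were below the median of the fed mice. The fasting effect was a log2 fold change of -1.09 (SE 0.13, adjusted p = 7.35e-08), a fasted to fed ratio of 0.471. Without KO LF fasted replicate 1 it was -1.15.

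Ordered by their means, Pgd was highest in WT LF fed mice, at 93.3 ± 22.3 CPM (SD, n = 3), followed by the WT HF fed, KO HF fed and KO LF fed groups at 69.2 ± 23.8, 63.6 ± 11.7 and 63.5 ± 19.8 CPM. The fed groups overlapped with each other. Below them came the KO LF fasted group at 42.5 ± 15.1 CPM. The WT LF fasted, KO HF fasted and WT HF fasted groups were lowest, at 34.4 ± 8.18, 31.4 ± 0.784 and 28.2 ± 5.87 CPM. The small SD of the KO HF fasted group rests on 3 mice.

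G6pdx, at chrX:74409483-74429194, encodes the glucose 6-phosphate dehydrogenase of the cytosol, the entry step of the oxidative branch. It was the least counted of the 9 genes, with 0 to 13 counts in the fasted mice and 5 to 31 in the fed mice. It ranged from 1.79 to 10.0 CPM with a median of 3.85 in fed mice and from 0 to 5.80 CPM with a median of 2.48 in fasted mice. WT HF fasted replicate 4 had 0 counts, which allows up to 3 counts or 1.16 CPM, covering counting error only. The ranges overlapped widely, with 4 of the 15 fasted mice below the lowest fed mouse and 14 of 15 below the fed median. The highest fed values were 10.0 CPM in a WT LF mouse and 9.61 CPM in a KO LF mouse. Its fasting effect was -0.93 (SE 0.31, adjusted p = 0.0311). The call did not survive leaving out any of the 4 replicate numbers (adjusted p from 0.0581 to 0.158) nor the replicate block (adjusted p = 0.0574), and without the 3 libraries with muscle markers the effect was -0.66 (adjusted p = 0.140). Exons of G6pdx overlap those of Ikbkg on the other strand.

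H6pd encodes the hexose 6-phosphate dehydrogenase of the endoplasmic reticulum, which carries out the first steps of the oxidative branch in the lumen and supplies NADPH to the cortisone reductase Hsd11b1. It ranged from 161 to 351 CPM with a median of 266 in fasted mice and from 211 to 303 CPM with a median of 262 in fed mice. The fasted mice spanned the whole fed range. Its fasting effect was 0.11 (SE 0.09, adjusted p = 0.493), and the point estimate was positive in 3 of the 4 genotype and diet groups and -0.12 in KO LF mice. The lowest value, 161 CPM, was that of KO LF fasted replicate 1. Without that mouse the effect was 0.15 (adjusted p = 0.233). Hsd11b1 had a fasting effect of -0.19 (SE 0.09, adjusted p = 0.132).

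Pgls, 6-phosphogluconolactonase, hydrolyses the lactone between the oxidative steps. It ranged from 24.3 to 59.1 CPM with a median of 30.3 in fasted mice and from 19.6 to 40.5 CPM with a median of 28.4 in fed mice. Its fasting effect was 0.15 (SE 0.12, adjusted p = 0.449). The highest mouse, at 59.1 CPM, was again KO LF fasted replicate 1, without which the effect was 0.07. Exons of Pgls overlap those of Fam129c on the same strand, and the effect of this overlap on the counts of Pgls was not tested.

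Of the non-oxidative branch, Tkt encodes transketolase, which moves carbon units between sugar phosphates. It was 5.96, 7.62, 13.4 and 10.9 CPM in the fasted and 41.3, 32.2 and 35.2 CPM in the fed WT LF mice. It was 7.98, 24.8, 6.98 and 6.55 CPM in the fasted and 24.5, 9.52, 28.3 and 12.4 CPM in the fed WT HF mice. The WT LF groups were separated by a wide gap. The WT HF groups overlapped through fasted replicate 2, at 24.8 CPM, which is the library with pancreas markers. Among KO LF mice it was 25.6, 4.89, 26.4 and 9.38 CPM fasted and 36.5, 18.5, 26.1 and 13.8 CPM fed, and among KO HF mice 21.3, 8.85 and 9.75 CPM fasted and 19.6, 35.1, 36.3 and 12.5 CPM fed. Both KO diets overlapped, and single mice in them differed several-fold. The fasting effect of Tkt was -1.05 (SE 0.26, adjusted p = 0.00495). It was -1.21 without WT HF fasted replicate 2, and -0.96 (adjusted p = 0.0581) without the mice numbered 3, where it missed the threshold.

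Taldo1 encodes transaldolase, the other carbon transferase of the branch. It ranged from 74.6 to 217 CPM with a median of 137 in fasted mice and from 152 to 209 CPM with a median of 178 in fed mice. Of the 15 fasted mice 13 were below the lowest fed mouse. The exceptions were KO LF fasted replicate 1, at 217 CPM the highest of all 30 mice, and WT HF fasted replicate 2, at 170.4 CPM. The fasting effect was -0.43 (SE 0.09, adjusted p = 6.37e-04), the smallest of the 6 called. Without KO LF fasted replicate 1 it was -0.50 (adjusted p = 4.07e-06). Rpia encodes ribose 5-phosphate isomerase, which supplies ribose 5-phosphate for nucleotides. It had few counts, 6 to 39 in fasted and 17 to 56 in fed mice. It ranged from 2.35 to 12.8 CPM with a median of 6.18 in fasted mice and from 6.22 to 18.8 CPM with a median of 10.9 in fed mice, and 8 of the 15 fasted mice were below the lowest fed mouse. Its fasting effect was -0.84 (SE 0.20, adjusted p = 0.00143).

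Idh1, at chr1:65158616-65186500, was 460.4, 318, 427 and 672 CPM in the fasted and 727, 835 and 922 CPM in the fed WT LF mice. It was 385, 648, 509 and 509 CPM in the fasted and 827, 650.1, 791 and 782 CPM in the fed WT HF mice. The fasted mice were below the fed mice in both diets, in WT HF by a narrow margin. Among KO LF mice it was 240.0, 381, 611 and 437 CPM fasted and 682, 715, 784 and 869 CPM fed. Among KO HF mice it was 586, 461 and 403 CPM fasted and 649, 756, 859 and 635 CPM fed. The groups did not overlap in either KO diet, so that the fasted mice were below the fed mice in all 4 combinations. The share of all genes tested with this trait is not given, so it is a description only. Over all mice, 13 of 15 fasted mice were below the lowest fed mouse. The fasting effect was -0.71 (SE 0.11, adjusted p = 3.37e-06), a fasted to fed ratio of 0.611.

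Idh2, the mitochondrial enzyme, ranged from 69.3 to 157 CPM with a median of 103 in fasted mice and from 55.5 to 162 CPM with a median of 117 in fed mice. Its fasting effect was -0.17 (SE 0.11, adjusted p = 0.359). The point estimates lay on both sides of 0. In WT HF mice it was 81.8, 103, 93.1 and 116 CPM fasted and 126, 129, 128 and 160.0 CPM fed, and every fasted mouse was below every fed mouse. In WT LF mice it was 106, 101, 142 and 157 CPM fasted and 106, 117 and 102 CPM fed, and the groups overlapped. In the KO LF fed group the 4 mice were close together, at 116, 112, 113 and 113 CPM, while the KO HF fed group spread over 162, 123, 132 and 55.5 CPM. The highest mice of the HF fed groups, WT replicate 4 at 160.0 CPM and KO replicate 1 at 162 CPM, are libraries with muscle and heart markers, and their part in these values was not tested. The fasting effects were 0.23 (SE 0.23) in WT LF, -0.47 (SE 0.22) in WT HF, -0.04 (SE 0.22) in KO LF and -0.38 (SE 0.24) in KO HF mice. The difference of the fasting effect between the diets (HF minus LF) was -0.52 (SE 0.23), with an unadjusted p of 0.0288 and an adjusted p of 0.293 by edgeR, and is not a call. Without the 3 libraries with muscle markers it was -0.42 (SE 0.23, adjusted p = 0.506), and the fasting effect in KO HF mice was -0.19 (SE 0.24). The left-out libraries turned the direction of Idh2. The library with heart markers held 1621 CPM and WT LF fed replicate 2 held 264 CPM of Idh2, and with both included the average fasting effect was 0.32 (adjusted p = 0.553).

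**Figure D2:**
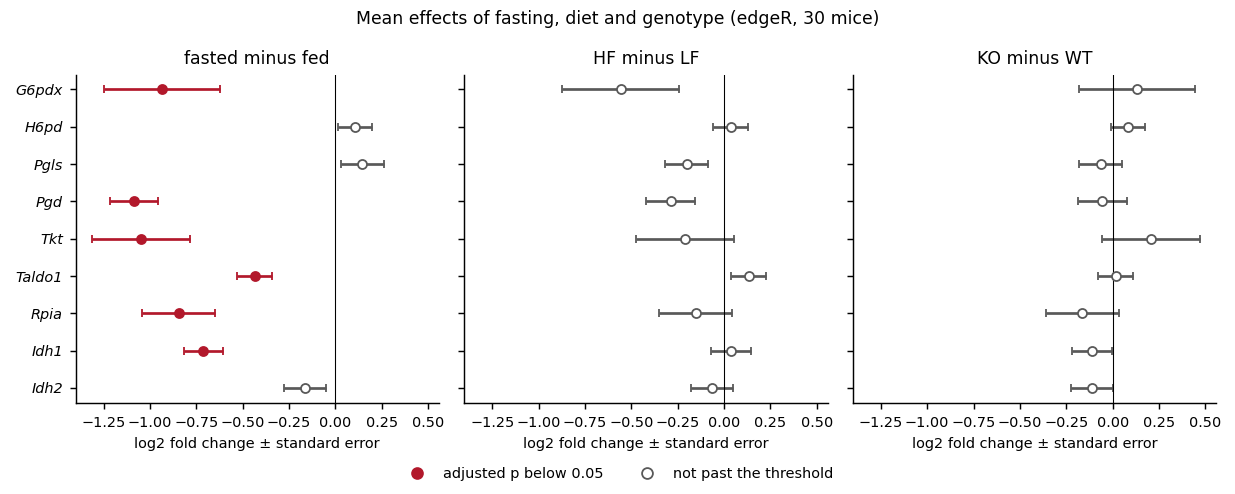
Log2 fold change with its standard error for the 9 genes, for fasting, diet and genotype, each averaged over the 4 combinations of the other factors in 30 mice, with filled points for an adjusted p below 0.05. The 6 filled points are all in the fasting panel and all below 0, and no gene passes in the diet or genotype panel.

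Because Idh1 and Idh2 form NADPH in different compartments, their counts were also divided within each mouse, which needs no normalization between libraries. This ratio and the one of Pgd to H6pd were chosen after their values had been seen and are given as descriptions. The log2 ratio of Idh1 to Idh2 counts was 2.12 ± 0.48 in fasted and 2.70 ± 0.36 in fed mice (SD, n = 15 each). The ranges overlapped, with 3 fasted mice below the lowest fed mouse. The log2 ratio of Pgd to H6pd counts was -2.99 ± 0.57 in fasted and -1.88 ± 0.52 in fed mice (SD, n = 15 each). It sets a single cytosolic gene against a single luminal gene, for different steps, and does not measure the branches. Of the 15 fasted mice 13 were below the lowest fed mouse. The highest of the fasted mice was KO LF fasted replicate 1, at -1.39.

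**Figure D3:**
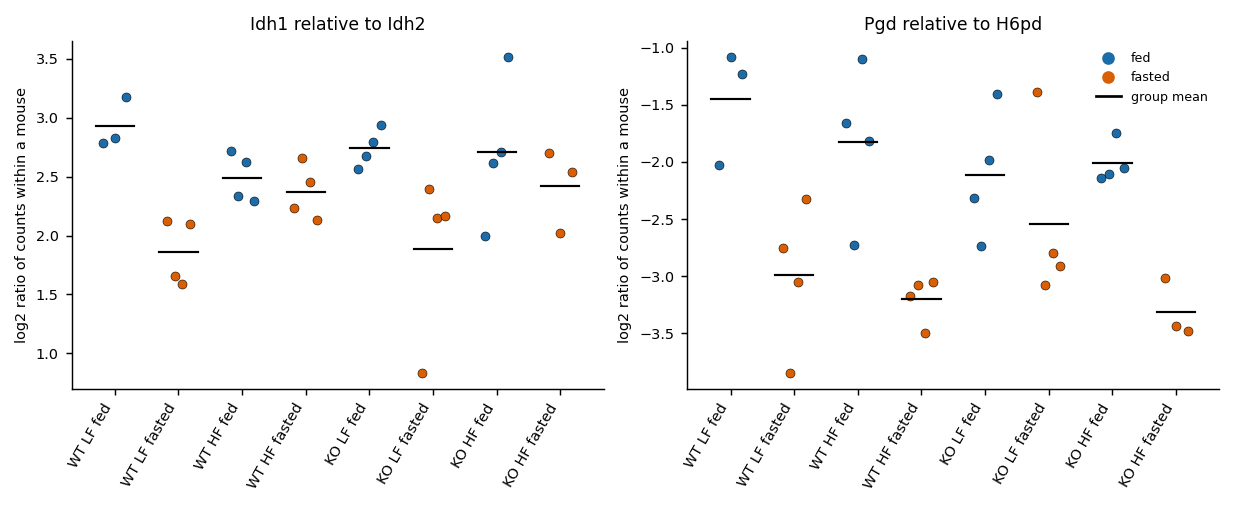
Log2 ratio of the counts of 2 genes within a mouse (vertical axes) by group, for Idh1 relative to Idh2 and Pgd relative to H6pd, with one point per mouse and a line for the group mean. The fasted points lie lower in both panels, with a difference of means of -0.59 for Idh1 to Idh2 and -1.12 for Pgd to H6pd, and one KO LF fasted mouse stands above the other fasted mice in the right panel.

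The fasting effect was then read within each genotype and diet, from the same model. These comparisons use separate mice. In WT LF mice 4 of the 9 genes were lower and 0 higher, where 7.54% of all genes tested passed (3.79% lower). They were Pgd at -1.43 (SE 0.27, adjusted p = 3.95e-04), Tkt at -1.93 (SE 0.54, adjusted p = 0.0257), Taldo1 at -0.71 (SE 0.19, adjusted p = 0.0162) and Idh1 at -0.82 (SE 0.22, adjusted p = 0.0145). In WT HF mice Pgd alone was called, at -1.31 (SE 0.25, adjusted p = 0.0128), where 0.424% of all genes passed (0.156% lower). Without the 3 libraries with muscle markers it was -1.45 (adjusted p = 0.0798) and was not called. In KO LF mice Rpia, at -1.16 (SE 0.39, adjusted p = 0.0408), and Idh1, at -0.87 (SE 0.21, adjusted p = 0.00297), were called, both lower, where 13.8% of all genes passed (6.53% lower). In KO HF mice 0 of the 9 genes passed by edgeR, where 0.527% of all genes did. Pgd and Idh1 were below an unadjusted p of 0.05 by edgeR there, as were 871 of all 11566 genes tested. Pgd came nearest to a call, at -1.02 (SE 0.28, adjusted p = 0.0972). DESeq2 called 1 gene in KO HF mice. The calls moved with the mice used. Without one replicate number, the number of genes called ranged from 1 to 3 in WT LF mice. It ranged from 0 to 1 in WT HF and from 1 to 2 in KO LF mice. The share of all genes called in those fits is not given, so a general change in calls is not told apart.

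The point estimates of G6pdx, Pgd, Tkt, Taldo1, Rpia and Idh1 were negative in all 4 combinations. These genes were called on the average of the same 4 combinations, which favours estimates of the same sign. The share of all genes called lower that are negative in all 4 is not given, so this is a description only. The estimates of G6pdx ran from -1.36 to -0.77 and those of Rpia from -1.16 to -0.64. Those of G6pdx on the HF diet depended on the libraries with muscle markers. Without these libraries G6pdx was at -0.05 (SE 0.65) in WT HF and -0.44 (SE 0.63) in KO HF mice. Rpia was then at -0.30 (SE 0.44) in WT HF and -0.64 (SE 0.44) in KO HF mice. The fasting effect of Pgd was -0.59 (SE 0.25) in KO LF mice, nearer to 0 than in the other combinations, and the difference of its fasting effect between genotypes (KO minus WT) was 0.56 (SE 0.26), with an unadjusted p of 0.0386 and an adjusted p of 0.981 by edgeR. None of the 9 genes passed for a difference of the fasting effect between diets (2.46% of all genes passed) or between genotypes (0 of all genes passed, 573 at an unadjusted p below 0.05). By a two-sided exact permutation of log2(CPM + 1), 10 of these 36 comparisons of a gene within a genotype and diet reached 0.0286, the smallest p that 4 mice against 4 or 3 allow, without adjustment. Over all genes tested 9.37% of such comparisons did.

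**Figure D4:**
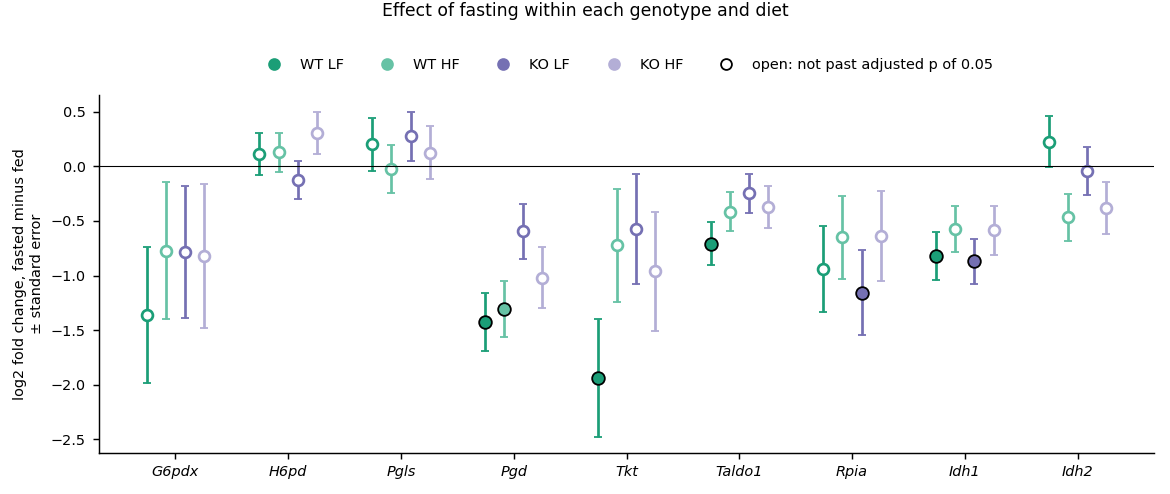
Log2 fold change of fasted against fed mice with its standard error, for each of the 9 genes within each of the 4 combinations of genotype and diet, with filled points for an adjusted p below 0.05. The points of G6pdx, Pgd, Tkt, Taldo1, Rpia and Idh1 lie below 0 in all 4 combinations, and those of H6pd, Pgls and Idh2 lie on both sides of 0.

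Sequencing lane was examined as a batch, since the labels place 16 mice on each of 2 lanes and the WT LF fed mice on lane 8 only. The fits within a lane used terms for feeding state, diet and genotype in place of the 8 groups, since not every group was on each lane. The estimates of the 2 lanes therefore rest on unlike sets of groups. Within lane 8, 5 of the 9 genes were lower in fasted mice, where 6.32% of all genes tested were. Within lane 7, where 1.51% were, there were 2, Pgd at -0.88 (adjusted p = 0.0381) and Idh1 at -0.62 (adjusted p = 0.0489). The 6 genes had negative estimates on both lanes, with G6pdx at -0.49 and -1.14, Tkt at -0.71 and -1.43, Taldo1 at -0.35 and -0.50, and Rpia at -0.72 and -1.24 on lanes 7 and 8. These genes were called over both lanes together, which favours estimates of the same sign. With lane as a term over all 30 mice, 6 genes passed. The share of all genes that passed with that term is not given, so this count is a description only. The summed level of the 11 Kupffer cell and macrophage markers was 320.4 to 845 CPM in fasted and 458 to 650.0 CPM in fed mice, with medians of 419 and 555. Hepatocyte markers had medians of 50167 and 48947 CPM. The part of these differences in the result was not tested.

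The high-fat diet moved none of the 9 genes past the threshold. On average over genotype and feeding state, 0 of 9 passed by edgeR, DESeq2 and limma voom, where 3.49% of all genes tested passed by edgeR. Pgd alone had an unadjusted p below 0.05, with an estimate of -0.29 (SE 0.13, adjusted p = 0.262) by edgeR. Of all 11566 genes tested, 1830 were below 0.05 unadjusted by that test. Pgd was 49.2 ± 22.9 CPM in HF and 56.1 ± 26.8 CPM in LF mice (SD, n = 15 each). The largest estimate was that of G6pdx, at -0.56 (SE 0.31). The estimates with the smallest SE were those of H6pd, at 0.04 (SE 0.09), and Taldo1, at 0.13 (SE 0.09). Within WT fed, WT fasted, KO fed and KO fasted mice 0 of the 9 passed by edgeR and 0 had an unadjusted p below 0.05 by that test, where 0.0778%, 1.12%, 0.00865% and 1.68% of all genes passed. In the same order, 604, 1419, 840 and 1510 of all 11566 genes were below 0.05 unadjusted. Among fed WT mice Idh2 was 126, 129, 128 and 160.0 CPM on HF and 106, 117 and 102 CPM on LF, and the groups did not overlap. Its estimate there was 0.33 (SE 0.23, adjusted p = 0.999). By the two-sided exact permutation test this was the only one of the 36 diet comparisons to reach the smallest p, 0.0286 without adjustment, which 5.18% of such comparisons over all genes reached. The highest of these mice, at 160.0 CPM, is a library with muscle markers, and without the libraries with muscle markers the estimate was 0.24 (SE 0.24). Tkt did not overlap between the same groups in the other direction, at 24.5, 9.52, 28.3 and 12.4 CPM on HF and 41.3, 32.2 and 35.2 CPM on LF. Its estimate was -0.95 (SE 0.51, adjusted p = 0.989), and -0.80 (SE 0.56) without the libraries with muscle markers. Its p by the exact permutation test was 0.0857 without adjustment. The share of all genes tested that did not overlap is not given, so this is a description only.

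The loss of Acadm moved none of the 9 genes past the threshold either. Averaged over diet and feeding state, 0 of 9 passed by edgeR, DESeq2 and limma voom and 0 had an unadjusted p below 0.05, where 0.00865% of all genes, that is 1 gene, passed. By edgeR, 335 of all 11566 genes were below 0.05 unadjusted. The estimates of the 9 genes lay between -0.16 (Rpia) and 0.21 (Tkt), and their median was -0.06. Idh1 was 604 ± 186 CPM in KO and 631 ± 186 CPM in WT mice (SD, n = 15 each). The SE of the genotype effect was 0.09 for H6pd and Taldo1, 0.11 to 0.13 for Idh1, Idh2, Pgls and Pgd, and 0.20 to 0.31 for Rpia, Tkt and G6pdx.

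Within each diet and feeding state, fitted on the mice of that condition alone, 0 of 9 genes passed between KO and WT in LF fed mice and in HF fed mice, and 0 of 8 in LF fasted and HF fasted mice, where G6pdx had too few counts to be tested. DESeq2 and limma voom called 0 of them as well. Of all genes tested 0.0193%, 0.00998%, 0.0104% and 0.00960% passed by edgeR, in that order. In LF fed mice Pgd and Tkt had the smallest unadjusted p. Pgd was 54.5, 40.0, 76.6 and 82.9 CPM in KO and 68.5, 99.9 and 112 CPM in WT mice, and Tkt was 36.5, 18.5, 26.1 and 13.8 CPM in KO and 41.3, 32.2 and 35.2 CPM in WT mice. The groups overlapped for both genes. Both were below 0.05 unadjusted by edgeR, as were 582 of the 10366 genes tested. The edgeR estimates were -0.54 (SE 0.23, adjusted p = 0.858) for Pgd and -0.60 (SE 0.27, adjusted p = 0.863) for Tkt. In the other 3 conditions 0 of these genes had an unadjusted p below 0.05. Of all genes tested, 220 did in LF fasted, 393 in HF fed and 384 in HF fasted mice. By exact permutation 0 of 36 comparisons reached the smallest p, where 2.53% did over all genes. The diet effect did not differ between genotypes for any of the 9 at the threshold (0 of all genes passed, 397 at an unadjusted p below 0.05).

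Genes of related pathways, from lists written by function, place these values. They were tested in the same model, for fasting averaged over genotype and diet, where 18.9% of all genes passed. Of 13 genes of fatty acid synthesis, a main user of NADPH, 11 were lower and 0 higher, with a median log2 fold change of -1.45. Those with the smallest adjusted p were Mlxipl, the carbohydrate-responsive transcription factor ChREBP, at -0.96 (SE 0.08), the ATP citrate lyase Acly at -2.78 (SE 0.22), the sterol-responsive factor Srebf1 at -2.40 (SE 0.22), and the fatty acid synthase Fasn at -3.28 (SE 0.31). Of 12 genes of cholesterol synthesis 10 were lower and 0 higher, with a median of -1.75. Examples were the sterol desaturase Sc5d at -1.80 (SE 0.13) and squalene synthase Fdft1 at -1.23 (SE 0.13). The medians of both lists were further below 0 than that of the 9 genes, at -0.71.

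Other enzymes that form NADPH, or NADP+ itself, did not move one way. Of 7 tested, 3 were lower, the malic enzyme Me1 at -1.08 (SE 0.16), the folate enzymes Aldh1l1 at -0.39 (SE 0.11) and Mthfd1 at -0.24 (SE 0.08), and 1 was higher, the mitochondrial transhydrogenase Nnt at 0.43 (SE 0.10). The NAD kinases Nadk, at 0.16 (SE 0.10), and Nadk2, at 0.08 (SE 0.10), did not pass. Of 7 other genes around pentose phosphates tested, 1 was higher, the ribokinase Rbks at 0.49 (SE 0.18), and 1 lower, the deoxyribose-phosphate aldolase Dera at -0.32 (SE 0.10). The ribulose 5-phosphate epimerase Rpe, which works beside Rpia, was at -0.40 (SE 0.16, adjusted p = 0.0757).

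Beside Idh1 and Idh2, the NAD-linked isocitrate dehydrogenase subunits were at 0.15 (SE 0.14) (Idh3a), -0.07 (SE 0.09) (Idh3b) and 0.09 (SE 0.09) (Idh3g) and did not pass. Of the 10 genes of this list of citrate steps, 2 were higher, among them Ogdh, of the 2-oxoglutarate dehydrogenase complex, at 0.41 (SE 0.09). There were 2 lower, the citrate synthase Cs at -0.52 (SE 0.08) and Slc25a1, which exports citrate from mitochondria, at -0.60 (SE 0.09). Of 9 genes of glycolysis around glucose 6-phosphate and the trioses 4 were lower and 1 higher, among them the pyruvate kinase Pklr, lower at -2.36 (SE 0.23). Of 5 genes around the glucose 6-phosphate of the endoplasmic reticulum, where H6pd works, 2 were higher and 0 lower. They were Slc37a4, which carries glucose 6-phosphate into that compartment, at 0.54 (SE 0.13), and Pgm1, a phosphoglucomutase of the cytosol, at 0.23 (SE 0.08).

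Of 9 genes around glutathione, thioredoxin and electron transfer, 1 was higher, the cytochrome P450 reductase Por, which takes electrons from NADPH, at 2.36 (SE 0.14). There were 2 lower, Cyb5r3, a cytochrome b5 reductase that uses NADH, at -0.97 (SE 0.10) and Txn1, a thioredoxin kept reduced by an NADPH-dependent reductase, at -0.37 (SE 0.13). The glutathione reductase Gsr, at 0.04 (SE 0.14), and the thioredoxin reductase Txnrd1, at -0.04 (SE 0.09), did not pass. Of 9 target genes of NRF2, the factor of the element printed in the G6pdx sequence, 3 were higher, Abcc3 at 0.69 (SE 0.11), Ephx1 at 0.64 (SE 0.11) and Srxn1 at 0.58 (SE 0.13), and 1 was lower, Gclc at -0.68 (SE 0.11).

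**Figure D5:**
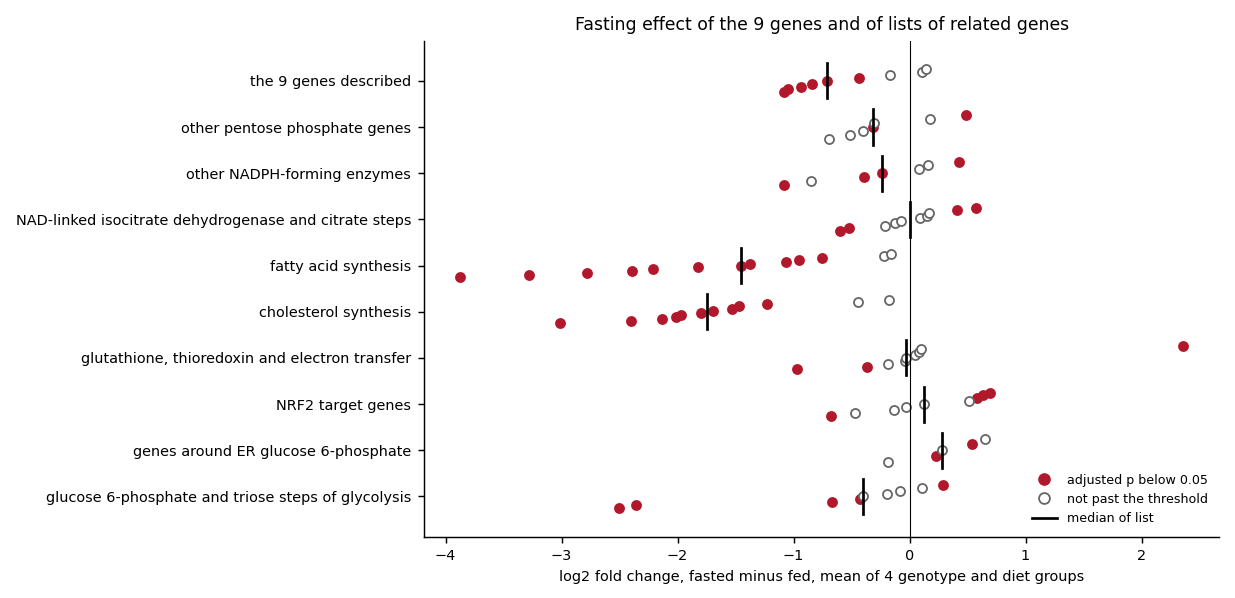
Log2 fold change of fasted against fed mice, averaged over 4 combinations of genotype and diet, for each gene of 10 lists (one row each), with filled points for an adjusted p below 0.05 and a vertical bar at the median of the list. The medians of fatty acid synthesis (-1.45) and cholesterol synthesis (-1.75) lie furthest to the left, the 9 genes have a median of -0.71, and the lists of glutathione and thioredoxin genes and of NRF2 targets have medians of -0.03 and 0.12.

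Finally, genes whose log2 CPM ran most like that of each member over the 30 mice were listed, as a description, with Pearson's r and, after it, r once the group means were removed. The mice share their groups, so that the plain r contains the fasting effect. For Pgd the 3 nearest genes were Fasn (r = 0.87, then 0.65), the acetyl-CoA carboxylase Acaca (0.87, then 0.64) and Acat2 (0.86, then 0.58). For Rpia they were Aacs (0.82, then 0.67), Fdps (0.81, then 0.72) and Umps (0.78, then 0.61). For Idh1 they were Cers2 (0.95, then 0.89), Sucnr1 (0.92, then 0.84) and Glud1 (0.90, then 0.82), and the plain r of these was the highest for any of the 9 genes.

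For the other members the nearest genes were Col5a3 for Taldo1 (r = 0.86), Afm for Tkt (0.85), Rfx7 for G6pdx (0.75), Mta1 for H6pd (0.73), Cct3 for Pgls (0.70) and Ss18l1 for Idh2 (0.78). Between members, Pgd ran with Taldo1 (r = 0.74, and 0.62 after group means), Tkt (0.70, then 0.39) and Idh1 (0.68, then 0.27). H6pd ran against Taldo1 (-0.47, then -0.59). KO LF fasted replicate 1, which correlates least with its group, had the lowest H6pd, 161 CPM, and the highest Taldo1, 217 CPM. WT LF fasted replicate 2 had 346 CPM of H6pd and the lowest Taldo1, 74.6 CPM. The part of these mice in the r of H6pd with Taldo1 was not tested. Idh1 and Idh2 had r = 0.29. In the last 300 bases of the transcripts of the 9 genes, no other annotated gene matched at 95% identity over at least 50 bases.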

How the data were processed

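The authors mapped single reads of 3′ libraries (QuantSeq) to GRCm38 with HISAT 0.1.5 and counted them per gene with HTSeq 0.6.1p1. The deposited counts are whole numbers for 20076 genes without normalization, and symbols were found for 19913. The study's methods and the label of the table name different Ensembl releases. Tests used edgeR 4.0.16 in R 4.3.3 (TMM, filterByExpr, robust quasi-likelihood F test, Benjamini-Hochberg adjustment over all genes tested, threshold 0.05). One model of 8 groups over 30 mice gave the effects of fasting and diet, the mean effect of genotype and the differences between effects. KO against WT within a condition used its own mice. The SE of a fold change is its size divided by the square root of F. The test was tried on simulated counts. Alternatives used DESeq2 1.42.0, limma 3.58.1 voom, other filters, scaling and sets of mice.

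Total counts of 2031053 to 4292200 per mouse give genes with few counts a large counting error. No library was a copy of another of its group. Nothing in the labels shows separate litters or dates, so p-values measure the spread between these mice. The labels place 16 mice on each lane, and the study's methods describe fewer per lane. The 9 genes, the lists and the markers were chosen with earlier results of these data known. Genes named are the 9, Acadm, Hsd11b1 with H6pd, the overlapping genes, genes of the lists, mostly the up to 4 with the smallest adjusted p with some uncalled ones added for their role after values were seen, and the 3 genes most correlated with each of the 9 (1 for some). Promoter windows came from RefSeq, gene positions from GENCODE on GRCm38.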

Additional observations from a re-analysis of the deposited data

Results flagged for a closer look

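In 6 of 54 gene and group combinations with 4 mice, the highest or lowest mouse was so far from the others that its gap to the nearest one relative to the group's range exceeded Dixon's 95% value for 4 samples. Chance alone flags about 1 in 20 such groups. Taldo1 was 217 CPM in KO LF fasted replicate 1, where the other mice of the group were at 108 to 126 CPM. This is the library with the lowest correlation to its group. In WT HF fasted replicate 2, the library with acinar pancreas markers, Taldo1 was 170.4 CPM against 134 to 137 CPM in the others, and Tkt was 24.8 CPM against 6.55 to 7.98 CPM. Taldo1 was 152 CPM in WT HF fed replicate 2, below 201 to 209 CPM in the others. Pgls was 40.5 CPM in WT HF fed replicate 3 against 26.4 to 28.4 CPM. Idh2 was 160.0 CPM in WT HF fed replicate 4 against 126 to 129 CPM in the others. This library held 600.3 CPM of skeletal muscle and 178 CPM of heart markers, and their part in the value was not tested.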

How the results depend on the processing

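On fasting averaged over genotype and diet, 6 of the 9 genes were called, and 6 were also called with DESeq2, limma voom, no filter on low counts, size factors of DESeq2, lane as a term or all 32 mice. There were 4 when at least 10 counts in every mouse were asked for, which removed G6pdx and Rpia from the genes tested, and 5 with the replicate number as a block. The replicate numbers do not pair the mice, since over 14 pairs of same-numbered mice the median correlation of deviations was -0.00681 and 1 pair exceeded 0.1. Within lane 7 there were 2. Without one replicate number, or one library that stood apart, the count ran from 4 to 6. It was 5 without the 3 libraries with muscle markers, which lost G6pdx. G6pdx was lost each time a replicate number was left out, and Tkt was lost as well without the mice numbered 3.

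Within WT LF mice the count of 4 became 1 with all 32 mice, 3 with no filter and 1 to 3 when a replicate number was left out. Within WT HF mice the count of 1 became 0 with all 32 mice, 0 to 1 when one was left out 2 without the 3 mice that stood apart and 0 without the 3 libraries with muscle markers (both chosen after seeing the data). Within KO LF mice the count of 2 became 0 with all 32 mice, 1 with at least 10 counts in every mouse and 1 to 2 when one was left out. Within KO HF mice the count of 0 became 1 with DESeq2. Apart from the fits within a lane, the share of all genes called in the changed settings, here and in the paragraph above, is not given. The counts therefore cannot tell a change in these genes from a change in calls over the whole table. The cause of these changes was not tested. For diet, genotype and the differences between effects, 0 of the genes were called in every setting run.

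Some small effects that had not been called changed sign, with these log2 fold changes: within lane 7 (diet G6pdx 0.12, H6pd -0.0048, Tkt 0.24, Idh2 0.0018 and genotype Pgd 0.035, Idh1 0.034, Idh2 0.096), within lane 8 (diet Rpia 0.17, Idh1 -0.097 and genotype G6pdx -0.21, Tkt -0.13, Taldo1 -0.072), with all 32 mice (diet H6pd -0.033, Rpia 0.014, Idh1 -0.014, Idh2 0.42 and genotype Rpia 0.0049, Idh2 0.37 and fasting Idh2 0.32), without the 3 mice that stood apart (diet H6pd -0.012, Idh1 -0.032 and genotype Taldo1 -0.046), without the libraries with muscle markers (diet H6pd -0.0024).

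With 1 replicate number or 1 library left out, the sign also changed within these ranges: G6pdx genotype -0.0011 to 0.29, H6pd diet -0.0030 to 0.064, H6pd genotype -0.010 to 0.13, Pgls genotype -0.18 to 0.051, Pgd genotype -0.16 to 0.025, Tkt genotype -0.058 to 0.41, Taldo1 genotype -0.054 to 0.072, Rpia diet -0.24 to 0.0014, Idh1 diet -0.057 to 0.15, Idh2 diet -0.18 to 0.034, Idh2 genotype -0.24 to 0.026. Depth limits G6pdx and Rpia most, which had as few as 0 and 6 counts.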

Other observations

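The library left out for its heart markers, KO HF fasted replicate 4, held 1621 CPM of Idh2 from 5065 counts, 101 CPM of Idh1 and 22.4 CPM of H6pd. In the 3 liver mice of the same group Idh2 was 69.3 to 114 CPM, Idh1 403 to 586 CPM and H6pd 261 to 351 CPM. Rpia was 22.4 CPM in that library, above its highest value of 18.8 CPM in the 30 mice used, while Pgd, at 31.4 CPM, was within the 30.6 to 32.2 CPM of its group. The other mouse left out, WT LF fed replicate 2, held 159 CPM of Pgd, above the 112 CPM of the highest of the 30 mice, and 264 CPM of Idh2, above their 162 CPM. Its bile duct and stellate cell markers summed to 336 and 1333 CPM.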
